A study of Rattus norvegicus with 102 samples.

Results

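Tnnt1, Olr59, Ptprv and Acvr1c are 4 of the 26284 genes listed in hippocampal RNA of young rats and of old rats with and without impaired maze memory. They were chosen by their normalised reads, because each differed between the 2 classes of old rat in 1 hippocampal subfield, and that difference is given below as a description and carries no test. Each gene was a single row of each of the 3 expression tables, identified as ENSRNOG00000028041 (Tnnt1) and ENSRNOG00000018606 (Olr59) on chromosome 1, ENSRNOG00000005277 (Ptprv) on chromosome 13, and ENSRNOG00000004828 (Acvr1c) on chromosome 3. Of the 3 subfields, the class difference was strongest in CA1 for Tnnt1 and for Olr59, in the dentate gyrus (DG) for Ptprv, and in CA3 for Acvr1c.

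The animals were 34 male Fisher 344 rats. There were 10 young rats (Y, 5 to 6 months) and 24 aged rats (17 to 22 months), and the latter comprised 12 aged-unimpaired (AU) and 12 aged-impaired (AI) animals, classed by their search for a removed platform in the Morris water maze. CA1, CA3 and DG were dissected from each rat, so all subfields came from the same animals. The tests between subfields did not use that pairing, unless the rat is named as a replicate block. The same rats were read in 3 tables, each with 1 library per rat and subfield, namely poly-A mRNA on Illumina, poly-A mRNA on Ion Proton, and a table named WT whose library type is not given in the sources used here.

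Troponin T of slow skeletal muscle, the product of Tnnt1, anchors the troponin complex to tropomyosin on the thin filament, and its mRNA is also known from the thalamus. Olr59 belongs to the large family of olfactory receptors, which couple through the G protein alpha subunit Gnal to the adenylyl cyclase Adcy3 in the nose. Ptprv encodes a receptor-type tyrosine phosphatase, OST-PTP, known from bone and testis. Acvr1c encodes ALK7, a type I receptor for activins and Nodal that phosphorylates the transducers Smad2 and Smad3.

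The stretches just upstream of the 4 start sites are shown because they differ in composition. Each line gives the 250 bases before the RefSeq start of the gene in build GRCr8, 5′ to 3′ on the gene's own strand, at chr1:78348785-78349034 (plus strand, Tnnt1), chr1:166610904-166611153 (minus, Olr59), chr13:49120122-49120371 (minus, Ptprv) and chr3:63301155-63301404 (minus, Acvr1c). Capitals mark the motifs TATAAA and GGGCGG, read on both strands, so that TTTATA and CCGCCC are their reverse forms.
Tnnt1: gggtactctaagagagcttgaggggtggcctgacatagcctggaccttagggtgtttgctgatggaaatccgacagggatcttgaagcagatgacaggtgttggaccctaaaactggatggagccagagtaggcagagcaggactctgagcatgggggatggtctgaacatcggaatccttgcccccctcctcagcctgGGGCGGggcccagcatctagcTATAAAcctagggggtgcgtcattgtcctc
Olr59: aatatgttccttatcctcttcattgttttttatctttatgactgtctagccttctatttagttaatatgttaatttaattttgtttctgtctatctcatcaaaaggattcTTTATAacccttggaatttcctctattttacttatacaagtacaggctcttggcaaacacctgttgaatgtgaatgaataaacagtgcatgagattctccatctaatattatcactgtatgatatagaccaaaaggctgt
Ptprv: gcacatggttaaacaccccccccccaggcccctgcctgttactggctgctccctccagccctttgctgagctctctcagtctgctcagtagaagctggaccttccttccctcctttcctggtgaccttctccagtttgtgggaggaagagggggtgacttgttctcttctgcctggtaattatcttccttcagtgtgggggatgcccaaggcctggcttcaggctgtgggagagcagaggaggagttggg
Acvr1c: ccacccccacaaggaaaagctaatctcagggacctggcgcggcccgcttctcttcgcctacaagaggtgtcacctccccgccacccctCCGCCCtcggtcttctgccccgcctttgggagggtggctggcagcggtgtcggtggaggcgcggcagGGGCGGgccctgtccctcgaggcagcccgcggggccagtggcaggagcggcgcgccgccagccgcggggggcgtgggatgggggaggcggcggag
The Acvr1c stretch held 74.4% G and C, 25 CG pairs and 2 copies of GGGCGG, a motif in 30.5% of 33469 rat promoters of the same length. The Tnnt1 stretch held 1 TATAAA, 1 GGGCGG and 4 CG pairs at 56.4% G and C, and TATAAA occurred in 12.9% of all promoters. The Olr59 stretch was A- and T-rich with 30.8% G and C and no CG pair, and its 1 TATAAA lay on the opposite strand. The Ptprv stretch held neither motif and no CG pair at 58.0% G and C, while the median promoter held 51.2% G and C and 5 CG pairs. CAGCTG (12.0% of promoters) and TGACGT (6.95%) were also searched on both strands and were in none of these 4 windows. These matches describe letters and are not binding sites.

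Depth, recovered from the normalised counts, ran from 3.25 to 42.8 M reads per Illumina library (median 10.7 M), from 4.47 to 21.4 M on Ion Proton and from 3.54 to 20.6 M in the WT table. Rat numbers fell into a series below 9000 (18 rats) and a series from 9000 up (16 rats), both holding all 3 classes, and their sizes equal those of the 2 testing sites, though no label names a rat's site. By markers of CA1, CA3 and DG neurons, 11 libraries were nearer another subfield than their own label in both poly-A tables (1 CA1, 7 CA3 and 3 DG), and 10 of those came from the series from 9000 up. In the Illumina and WT tables but not on Ion Proton, the CA3 library of AI rat R9781 was nearest DG and the DG library of young rat R9881 nearest CA3, and both were kept when the 11 were left out. A further 4 Illumina libraries (correlation 0.141 to 0.311 against a median of 0.721) were unlike the Ion Proton library of the same name. In bulk tissue, fewer cells of a type and less RNA per cell cannot be told apart, and results that rest on such libraries are given with and without them. Leaving out the 4 libraries unlike Ion Proton, none of them from CA3, gave AI minus AU differences of -1.60 (SE 0.41) for Tnnt1 in CA1, 1.09 (SE 0.53) for Olr59 in CA1, 0.79 (SE 0.20) for Ptprv in DG and -0.39 (SE 0.22) for Ptprv in CA1, to be read beside the values over all libraries given below.

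All values below are normalised reads of the Illumina table unless another table is named, and a difference is on the scale of log2(normalised reads + 1) with its standard error. Differences were tested with limma over all genes whose mean was at least 10 and adjusted by the Benjamini-Hochberg method. The 4 members passed that filter in every Illumina comparison of all rats. In the AI against AU comparison, limma called 0 of 14191 genes in CA1 (0%), 0 of 14246 in CA3 (0%) and 0 of 14019 in DG (0%), with 858 (6.05%), 250 (1.75%) and 505 (3.6%) genes at an unadjusted p under 0.05. There edgeR also called 0 genes in each subfield and DESeq2 called 2, 0 and 0.

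**Figure D1:**
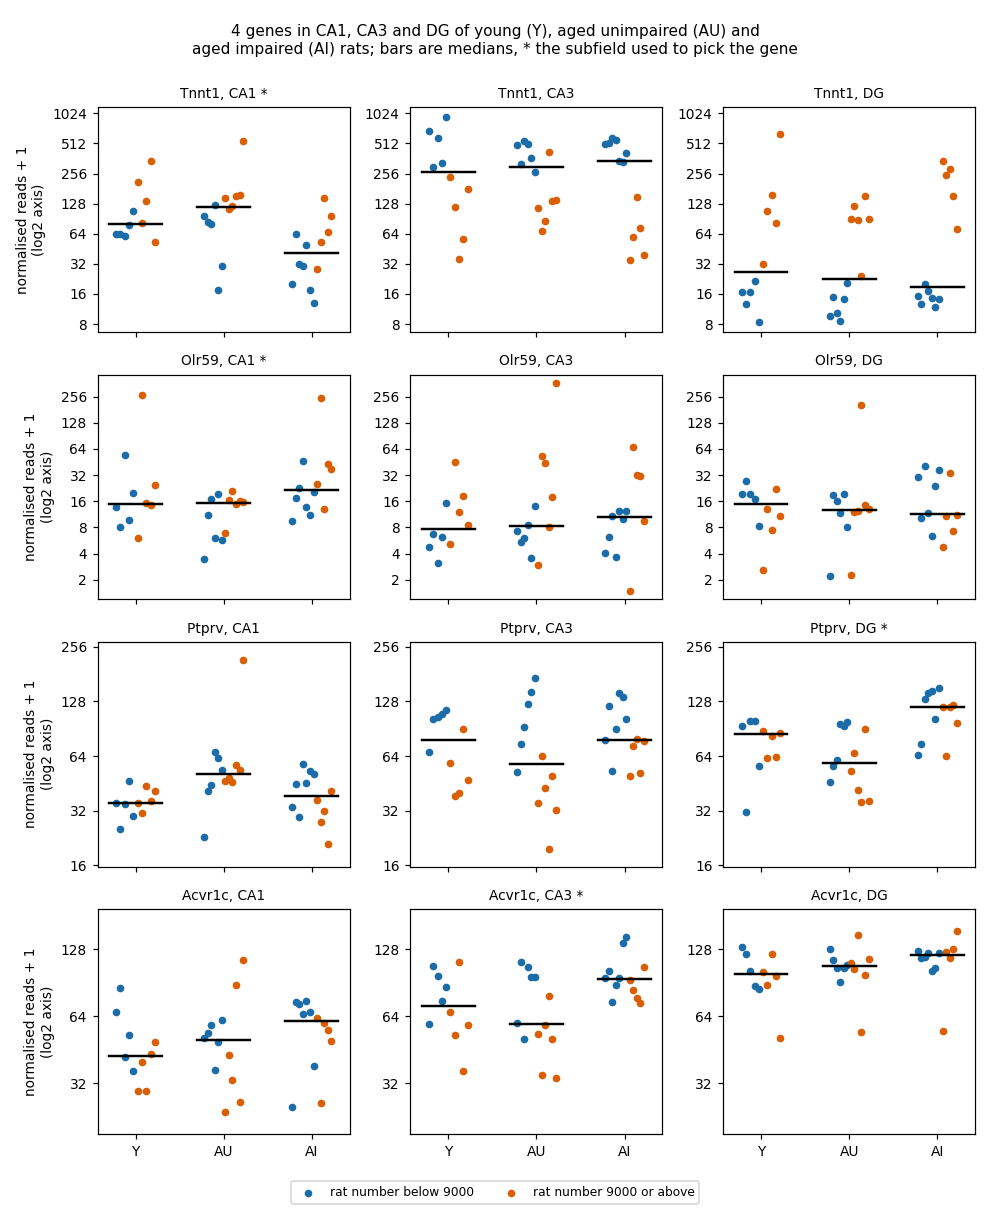
Normalised reads + 1 (log axis) of each member in every Illumina library, by subfield and class of rat, coloured by rat-number series, with the group median as a bar. Tnnt1 in CA1 has AI values mostly below the AU median of 117, and Ptprv in DG and Acvr1c in CA3 have all 12 AI values above the AU medians of 57.5 and 58.3.

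Tnnt1 was lower in CA1 of the AI rats than of the AU rats. Its CA1 level ran from 52.0 through a median of 79.7 to 342 in young rats, from 16.4 through 117 to 539 in AU rats, and from 12.1 through 39.8 to 146 in AI rats. The classes overlapped, but 11 of 12 AI rats lay below the AU median and 4 AU rats lay above the highest AI rat. The AI minus AU difference was -1.31 (SE 0.41), against 0.03 (SE 0.43) for AU minus young and -1.28 (SE 0.43) for AI minus young. The 2 differences from young share the young rats and were not tested.

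Within each rat-number series no AI rat exceeded the AU median of its own series in CA1. Tnnt1 medians below 9000 were 63.0 in young, 81.4 in AU and 29.6 in AI rats, and from 9000 up they were 134, 148 and 65.8. The AI minus AU difference was -1.06 (SE 0.41) below 9000 and -1.35 (SE 0.50) from 9000 up. It was -1.61 (SE 0.42) for Tnnt1 on Ion Proton, where the medians were 73.5, 96.2 and 26.5, and -1.15 (SE 0.44) in the WT table. The highest CA1 value of Tnnt1, 539, came from AU rat R9869, whose CA1 library was nearer another subfield. That library also held 19779.7 reads of the 6 striatal genes, against at most 3041 in the other CA1 libraries, and the lowest CA1 marker sum of any CA1 library, 2429.75. The difference was -1.09 (SE 0.39) without it.

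In CA3 and DG the aged classes overlapped for Tnnt1. In CA3 Tnnt1 ran from 67.9 through 294 to 537 in AU rats and from 33.8 through 339 to 580 in AI rats, a difference of -0.22 (SE 0.55, adjusted p = 1.0). In DG it ran from 7.67 through 21.4 to 153 in AU rats and from 10.7 through 17.7 to 341 in AI rats, a difference of 0.42 (SE 0.71, adjusted p = 1.0). The 341 belonged to the DG library of rat R9781, nearer another subfield, and without all such libraries the Tnnt1 difference was -0.0057 (SE 0.75) in DG and 0.0024 (SE 0.50) in CA3. The standard errors in CA3 and DG were wider than that in CA1. Young rats spanned 34.4 to 940 in CA3 and 7.35 to 630 in DG.

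**Figure D2:**
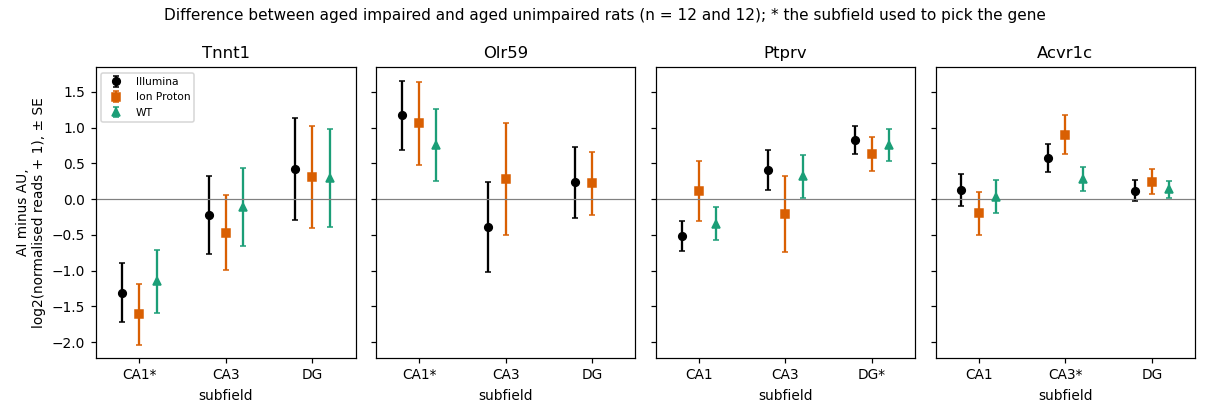
AI minus AU difference of each member on the log2(normalised reads + 1) scale, with 1 standard error to each side, by subfield and by table. The CA1 differences of Tnnt1 lie between -1.61 and -1.15 in the 3 tables, and those of Olr59 between 0.75 and 1.17.

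Across subfields Tnnt1 was highest in CA3 over all rats and over those below 9000, but not over those from 9000 up. In the subfield comparisons 35.4% of 14179 genes were called between CA1 and CA3, 55.6% between CA1 and DG and 55.6% between CA3 and DG. Tnnt1 passed all 3 tests, lower in CA1 than in CA3 by a difference of -1.58 (SE 0.35, adjusted p = 0.00016), higher in CA1 than in DG by 0.92 (SE 0.35, adjusted p = 0.022) and higher in CA3 than in DG by 2.49 (SE 0.35, adjusted p = 2.8e-09). The CA1 to DG call was lost with edgeR (0.24, adjusted p = 0.57), with DESeq2 (0.25, adjusted p = 0.53), in the WT table (0.69, adjusted p = 0.099) and without the 7 deeply sequenced rats (0.86, adjusted p = 0.063).

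In the series below 9000, Tnnt1 was highest in CA3 in 18 of 18 rats in each of the 3 tables. Its CA1 values there spanned 12.1 to 122, its CA3 values 267 to 940 and its DG values 7.35 to 20.6, with no overlap between CA3 and the other subfields. From 9000 up it was highest in CA3 in only 3 of 16 rats, with 6 highest in CA1 and 7 in DG, and its values spanned 27.3 to 539 (CA1), 33.8 to 415 (CA3) and 23.1 to 630 (DG). The change in the subfield difference between the series was tested after the data were seen: CA1 minus CA3 was -3.26 below 9000 and 0.31 from 9000 up (difference -3.58, SE 0.43, adjusted p = 3.7e-11), where 39.7% of all genes were called. CA3 minus DG was 5.02 below 9000 and -0.35 from 9000 up for Tnnt1 (difference 5.37, SE 0.43, adjusted p = 1.1e-18, with 48.4% of genes called), and CA1 minus DG differed by 1.79 (SE 0.43, adjusted p = 0.025, with 0.839% called, and adjusted p = 0.13 without the deeply sequenced rats). The series from 9000 up also held 10 of the 11 libraries nearer another subfield. Without those libraries the Tnnt1 changes were -3.21 (SE 0.42, adjusted p = 1.4e-09), 5.21 (SE 0.42, adjusted p = 3.3e-17) and 2.00 (SE 0.39, adjusted p = 0.0018) for CA1 minus CA3, CA3 minus DG and CA1 minus DG.

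**Figure D3:**
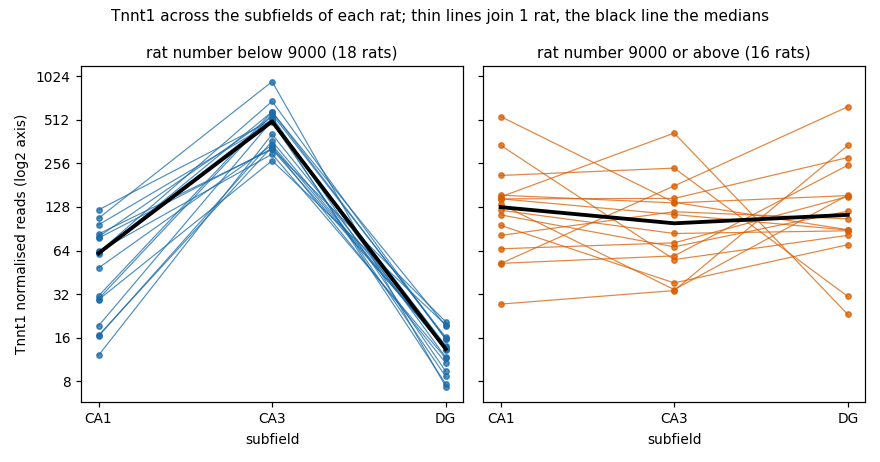
Tnnt1 in CA1, CA3 and DG of each rat, joined by a line per rat, on a log axis of normalised reads, with the rat-number series in separate panels and the medians as a black line. All 18 rats below 9000 peak in CA3, against 3 of 16 from 9000 up.

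The genes most like Tnnt1 across all Illumina libraries were Tmem212, Cfap43 and Spag17. Pearson's r of log values, a description over libraries that share rats and sequencing runs, was 0.98 with Tmem212, 0.97 with Cfap43 and 0.97 with Spag17, and on Ion Proton 0.90, 0.83 and 0.90. Tmem212 is a marker of ependymal cells, Cfap43 a cilia- and flagella-associated protein and Spag17 a protein of the ciliary central pair. The median of Tmem212 followed the same series split, with 9.08, 98.9 and 0 in CA1, CA3 and DG below 9000 and 21.2, 20.3 and 23.8 from 9000 up. In CA1 the AI minus AU difference was -1.51 (SE 0.55) for Tmem212, -1.20 (SE 0.50) for Cfap43 and -1.23 (SE 0.63) for Spag17. These genes, like those named for the other members below, were picked by likeness in the same libraries, so their differences are no separate support.

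**Figure D4:**
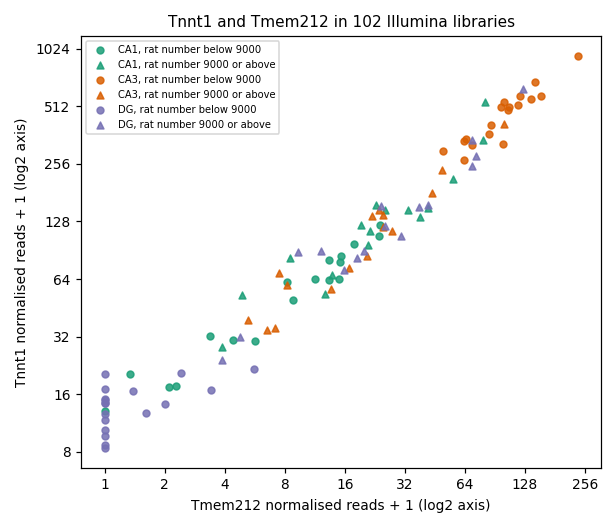
Tnnt1 against Tmem212 in all Illumina libraries, both as log2(normalised reads + 1), coloured by subfield. The points of all 3 subfields and both rat-number series (marker shape) lie in a single narrow band, with r = 0.98.

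A list of 10 ependymal genes was written after those likenesses were seen, and 9 of the 10 were in the table, none at 0 in every library. The summed level of the list in CA1 was 369 to 991 in young, 404 to 1470 (median 500) in AU and 410 to 1260 (median 485) in AI rats, so the classes overlapped. Its r with Tnnt1 was 0.38 over the CA1, 0.85 over the CA3 and 0.50 over the DG libraries. Single ependymal genes tracked Tnnt1 in CA1 to different degrees, with r = 0.88 for Ccdc153, 0.86 for Mlf1 and 0.79 for Dynlrb2 against 0.00 for Rsph1 and -0.29 for Drc1. The median of Dynlrb2 was 16.2 in AU and 5.97 in AI rats, that of Mlf1 14.3 and 4.08, that of Ccdc153 31.1 and 20.3, that of Pifo 6.63 and 3.12 and that of Efhb 4.90 and 1.81. The medians of the other 4 genes lay closer together, at 49.96 and 48.7 for Rsph1, 48.9 and 48.3 for Tekt1, 77.9 and 80.6 for Hydin, and 234 and 278 for Drc1. Of the 17 marker lists, the summed CA3 list (7 of 8 genes in the table) had the highest r with Tnnt1 in CA1, 0.66, and ran from 1521 to 2969 (median 2037) in AU and from 1320 to 2676 (median 1544) in AI rats. With the oligodendrocyte list r of Tnnt1 was 0.62 in CA1, 0.69 over the CA3 libraries and 0.87 over those of DG, and the 6 genes summed in CA1 to 91561 to 287889 (median 139343) in AU and 97216 to 198362 (median 125550) in AI rats. In 5 of the 17 marker lists all genes tested in CA1 had an AI minus AU difference of the same sign, negative for the 6 oligodendrocyte (median -0.13) and 6 microglial genes (-0.10) and positive for 7 DG (0.28), 6 endothelial (0.17) and 4 blood genes (0.22). Of the 6 genes tested from the CA3 list 5 were negative (median -0.31), and 0 genes of these lists were called. The skeletal muscle list ran from 283 to 434 in both aged classes together, and the 12 thalamic and habenular genes from 1932 to 2282 in AU and from 1574 to 7290 in AI rats. The part of these cells in the Tnnt1 difference was not tested.

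Of 12 troponin and tropomyosin genes listed, Tnnt1 included, 9 passed the filter in the subfield comparison, of which 3 were called between CA1 and CA3, 6 between CA1 and DG and 5 between CA3 and DG, beside 35.4%, 55.6% and 55.6% of all genes. For age and for AI against AU 0 were called in any subfield, where at most 0.31% of all genes were called for age and 0% for class, so these counts show nothing particular to the list. Cardiac troponin T, Tnnt2, was higher in CA3 than in DG by 1.49 (SE 0.30, adjusted p = 1.3e-05), and cardiac troponin I, Tnni3, by 0.95 (SE 0.21, adjusted p = 8.8e-05). Tnni3 is the next gene along the chromosome from Tnnt1 in the reference, its r with Tnnt1 was 0.68, and its AI minus AU difference in CA1 was -0.77 (SE 0.41, adjusted p = 0.86).

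Olr59 was higher in CA1 of AI rats, at low read numbers. Its CA1 level ran from 5.12 through a median of 13.9 to 264 in young rats, from 2.44 through 14.3 to 19.95 in AU rats and from 8.46 through 20.5 to 246 in AI rats. Of the 12 AI rats, 6 lay above the highest AU rat and 8 above the AU median. These levels rested on 4 to 211 recovered reads per CA1 library with a median of 16.5. The AI minus AU difference was 1.17 (SE 0.49), against -0.83 (SE 0.51) for AU minus young and 0.34 (SE 0.51) for AI minus young.

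The Olr59 difference was positive in all 3 tables but varied in size. It was 1.06 (SE 0.58) on Ion Proton and 0.75 (SE 0.50) in the WT table, and 1.77 with edgeR and 1.798 with DESeq2. On Illumina it was 1.02 (SE 0.47) below 9000 and 1.53 (SE 0.80) from 9000 up. Leaving out AI rat R9870, which held the 246, gave 0.87 (SE 0.44). On Ion Proton the CA1 medians of AU and AI rats were 10.0 and 9.55 below 9000, and 3.97 and 17.7 from 9000 up. There 3 of 7 AI rats below 9000 and 5 of 5 from 9000 up exceeded the AU median of their series. In CA3 the Olr59 medians were 6.66, 7.36 and 9.45 in young, AU and AI rats (AI minus AU -0.39, SE 0.63, adjusted p = 1.0), and in DG they were 14.0, 11.7 and 10.4 (0.23, SE 0.50, adjusted p = 1.0, and 0.85, SE 0.43, without the libraries nearer another subfield). Without AU rat R9869 the CA3 difference turned to 0.04.

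A few libraries stood far above the rest for Olr59, and they were among the 6 highest in each table. The 4 highest Illumina values were 365 in CA3 of AU rat R9869, 264 in CA1 of young rat R9876, 246 in CA1 of AI rat R9870 and 202 in DG of AU rat R9865. The same libraries held 282, 149, 52.7 and 102.5 normalised reads of Olr59 on Ion Proton and 155, 105, 75.4 and 54.2 in the WT table. All 4 rats had numbers from 9000 up. Rat R9870 also held 65.9 in CA3 and rat R9876 44.7 in CA3, the fifth and the ninth highest Illumina values, while rat R9869 held 14.5 in CA1 and 12.0 in DG and rat R9865 14.1 in CA1 and 7.20 in CA3. Of the 4 highest libraries only the DG library of rat R9865 was nearer another subfield. Their summed cerebral cortex markers, a list written after the likenesses were seen, were the highest of their own class and subfield in the 2 CA1 libraries (4103 for R9876 and 3500 for R9870) and in the CA3 library (4480), while the 4053 of the DG library lay inside the 2931 to 4182 of AU rats in DG. The CA1 library of rat R9870 also held 154589 reads of choroid plexus markers, and those of AU rats R9865 and R9862 held 129267 and 23435 with Olr59 at 14.1 and 19.95. The part of neighbouring tissue in these values was not tested.

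**Figure D5:**
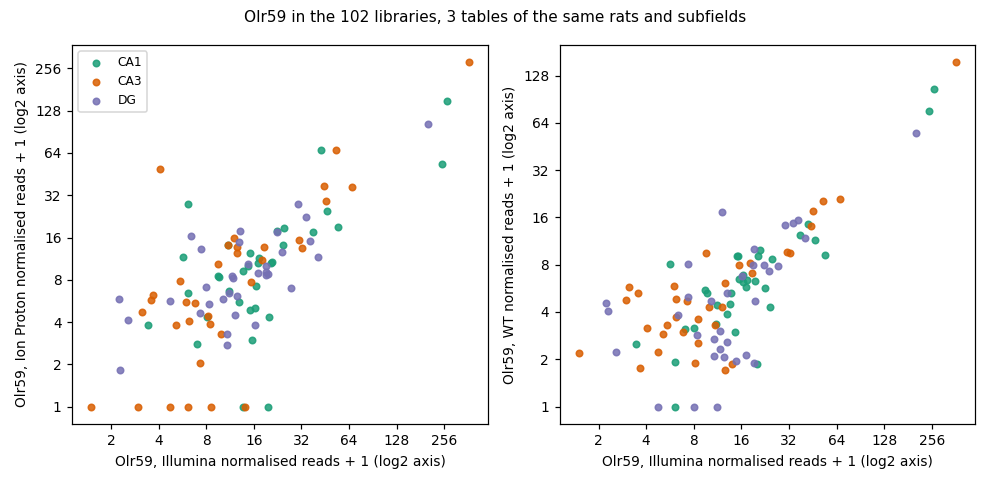
Olr59 in the Illumina table against the Ion Proton and the WT table, a point per library, on log axes of normalised reads + 1. The library of rat R9869 CA3, at 365, 282 and 155, is the highest in all 3 tables.

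Olr59 was not called between subfields in the Illumina table of all rats, with differences of 0.69 (SE 0.33, adjusted p = 0.095) for CA1 minus CA3, 0.41 (SE 0.33, adjusted p = 0.29) for CA1 minus DG and -0.28 (SE 0.33, adjusted p = 0.49) for CA3 minus DG. In rats below 9000 alone it was higher in CA1 than in CA3 by 0.97 (adjusted p = 0.0048) and lower in CA3 than in DG by a difference of -1.11 (adjusted p = 0.0012). The CA3 minus DG value of Olr59 was 0.65 from 9000 up, and the change between the series was -1.76 (SE 0.63, adjusted p = 0.016), which on Ion Proton was -1.53 (adjusted p = 0.14). The genes most like Olr59 were Cux2, a transcription factor of upper cortical layers (r = 0.76, and 0.35 on Ion Proton), LOC691153 (0.72) and Arhgef15, an endothelial guanine nucleotide exchange factor (0.72). Over the 34 CA1 libraries Olr59 had r = 0.64 with the summed cortex list, 0.60 with the endothelial list and 0.47 with the choroid plexus list. In CA3 and DG r was 0.77 and 0.69 with the endothelial list, 0.77 and 0.43 with the striatal list, 0.61 and 0.61 with the subicular list, 0.38 and 0.03 with the choroid plexus list and -0.08 and 0.18 with the cortex list, and single cortex genes in CA1 ran from -0.12 for Fezf2 and 0.03 for Rasgrf2 to 0.63 for Tbr1. In CA1 the 6 endothelial genes summed to 1138 to 2532 in AU and 1591 to 3181 in AI rats. As given beside Tnnt1, all 6 endothelial, 4 blood and 7 DG genes tested in CA1 had a positive AI minus AU difference. All 6 oligodendrocyte and all 6 microglial genes had a negative one. In CA1 Olr59 had r = -0.11 with the DG list and 0.37 with the blood list. The part of these cells in the Olr59 difference was not tested.

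Few olfactory receptors were measured above low levels. Of 964 listed by their Olr symbols, 697 were at 0 in every Illumina library and 4 had a mean of at least 10, namely Olr59 (25.1), Olr1462 (24.8), Olr34 (16.7) and Olr1353 (10.9), as normalised reads not divided by length, so no order between them is read. Of these 4, 2 were called between CA1 and CA3, 3 between CA1 and DG and 3 between CA3 and DG, beside 35.4%, 55.6% and 55.6% of all genes, and for age and class 0 were called, of 3 tested in CA1, 3 in CA3 and 4 in DG, where at most 0.31% and 0% of all genes were. Olr1353 was lower in CA1 than in DG by a difference of -2.52 (SE 0.23, adjusted p = 1.9e-16), Olr1462 lower in CA3 than in DG by -2.29 (SE 0.27, adjusted p = 4.9e-12), and Olr34 higher in CA3 than in DG by 0.27 (SE 0.10, adjusted p = 0.014). Of 3 olfactory signalling genes tested, the G protein subunit Gnal was lower in CA3 than in DG (-1.22, SE 0.11), the cyclase Adcy3 lower in CA1 than in CA3 (-0.30, SE 0.05), and the receptor-transport relative Reep1 higher in CA3 than in DG (0.17, SE 0.04). In the reference Olr59 overlaps Or51f23b-ps1 and Or51f5, which are not listed in the table under those names. Whether reads were shared with these relatives was not tested, so the level of Olr59 is uncertain.

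Ptprv was higher in DG of AI rats. Its DG level ran from 30.3 through a median of 83.2 to 98.5 in young rats, from 34.7 through 57.5 to 98.1 in AU rats and from 63.4 through 118 to 151 in AI rats. All 12 AI rats lay above the AU median, 8 of them above the highest AU rat, and 7 AU rats lay below the lowest AI rat. The AI minus AU difference was 0.82 (SE 0.20), with -0.26 (SE 0.21) for AU minus young and 0.56 (SE 0.21) for AI minus young, so the young mean lay between the aged classes. It was 0.63 (SE 0.24) on Ion Proton, 0.75 (SE 0.22) in the WT table, 0.62 (SE 0.28) below 9000 and 1.01 (SE 0.23) from 9000 up, and leaving out any single rat kept it between 0.75 and 0.89.

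In CA1 and CA3 the aged classes overlapped for Ptprv. In CA1 its level ran from 22.0 through 50.1 to 217 in AU rats and from 20.02 through 37.7 to 57.0 in AI rats, the opposite order, with a difference of -0.51 (SE 0.21, adjusted p = 0.80). That CA1 value of Ptprv was -0.06 (SE 0.22) below 9000, -1.05 (SE 0.33) from 9000 up and 0.11 (SE 0.42) on Ion Proton. The 217 again belonged to the CA1 library of AU rat R9869, nearer another subfield and high in striatal genes, and the difference was -0.33 (SE 0.16) without it. In CA3 Ptprv ran from 18.7 through 57.2 to 172 in AU rats and from 48.8 through 77.9 to 142 in AI rats, a difference of 0.41 (SE 0.28, adjusted p = 1.0), which was 0.22 (SE 0.31) without the libraries nearer another subfield.

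Ptprv was lower in CA1 than in both other subfields, by a difference of -0.76 (SE 0.15, adjusted p = 2.7e-05) from CA3 and of -0.89 (SE 0.15, adjusted p = 6.8e-07) from DG, while CA3 and DG did not pass (-0.12, SE 0.15, adjusted p = 0.51). On Ion Proton the CA1 to CA3 difference was -0.53 (adjusted p = 0.15). Ptprv was highest in CA3 in 15 rats and in DG in 16 of 34, and again the series differed, with 13 of 18 rats highest in CA3 below 9000 and 2 of 16 from 9000 up. The change between series was -1.06 (SE 0.27, adjusted p = 0.0011) for CA1 minus CA3 and 0.76 (SE 0.27, adjusted p = 0.017) for CA3 minus DG, and the latter was 0.37 (adjusted p = 0.66) on Ion Proton and 0.64 (adjusted p = 0.074) without the deeply sequenced rats.

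The genes most like Ptprv were Fam189b (r = 0.78, and 0.49 on Ion Proton), the carbohydrate-response transcription factor Mlxipl (0.76 and 0.59) and the kinetochore gene Spc25 (0.73 and 0.31). In DG the AI minus AU difference was 0.11 (SE 0.08) for Fam189b, 0.20 (SE 0.13) for Mlxipl and 0.70 (SE 0.20) for Spc25. Of the 20 receptor tyrosine phosphatases tested, Ptprv included, 8 were called between CA1 and CA3, 18 between CA1 and DG and 14 between CA3 and DG, beside 35.4%, 55.6% and 55.6% of all genes. For age and class 0 were called in any subfield, where at most 0.31% and 0% of all genes were. The median AI minus AU difference of these 20 was 0.04 in DG (15 of 20 positive), 0.10 in CA3 (16 of 20) and -0.02 in CA1 (8 of 20). Over all genes the median was -0.002 in DG, -0.002 in CA3 and -0.004 in CA1. The 20 include Ptprv, picked for its DG difference. The share of all genes that were positive was not counted, so no trait of the family is read from these counts. Ptpru was higher in CA1 than in DG by 2.19 (SE 0.16, adjusted p = 1.1e-21) and Ptpre lower by a difference of -0.66 (SE 0.08, adjusted p = 2.6e-12). Over the 34 DG libraries Ptprv had r = 0.57 with the summed CA3 list, 7 of 8 genes, which ran from 1328 to 4215 (median 3238) in AU and from 2576 to 4401 (median 3708) in AI rats, and r = -0.50 with the CA1 list, 6 of 8 genes, at 845 to 9471 in AU and 797 to 4839 in AI rats. With the DG list r was -0.27, and the 8 genes of that list summed to 4320 to 13071 (median 9201) in AU and 1877 to 10818 (median 8468) in AI rats. In 8 of the 17 lists all genes tested in DG had an AI minus AU difference of the same sign, with 0 called. It was negative for 4 CA1 (median -0.36) and 7 DG genes (-0.34), and positive for 5 CA3 (0.29), 7 ependymal (0.15), 6 endothelial (0.13), 4 blood (0.11), 6 oligodendrocyte (0.08) and 6 microglial genes (0.07). Their part in the Ptprv difference was not tested, and without the libraries nearer another subfield the difference was 0.80 (SE 0.20).

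Acvr1c was higher in CA3 of AI rats. Its CA3 level ran from 35.3 through a median of 70.0 to 112 in young rats, from 32.9 through 58.3 to 112 in AU rats and from 72.3 through 93.3 to 145 in AI rats. All 12 AI rats lay above the AU median, 2 of them above the highest AU rat, and 7 AU rats lay below the lowest AI rat. The AI minus AU difference was 0.57 (SE 0.19), with -0.15 (SE 0.20) for AU minus young and 0.43 (SE 0.20) for AI minus young. It was 0.90 (SE 0.27) on Ion Proton but 0.28 (SE 0.17) in the WT table, and 0.31 (SE 0.20) below 9000 against 0.80 (SE 0.26) from 9000 up. Below 9000 only 3 of 7 AI rats exceeded the AU median of that series, 95.1, and from 9000 up all 5 AI rats lay above the AU median of 51.2.

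In CA1 and DG the AI minus AU difference of Acvr1c was small. Its medians in young, AU and AI rats were 41.6, 49.1 and 60.2 in CA1 (AI minus AU 0.12, SE 0.23, adjusted p = 0.99) and 97.9, 106 and 120 in DG (0.12, SE 0.14, adjusted p = 1.0). Across subfields Acvr1c increased from CA1 through CA3 to DG, with CA1 minus CA3 at -0.64 (SE 0.12, adjusted p = 6.1e-06), CA1 minus DG at -1.11 (SE 0.12, adjusted p = 1.8e-13) and CA3 minus DG at -0.46 (SE 0.12, adjusted p = 0.00060). It was highest in DG in 27 of 34 rats. On Ion Proton the CA3 to DG difference was -0.22 (adjusted p = 0.31), and 17 of 34 rats were highest in DG. Its series changes were not called over all libraries (adjusted p = 0.16 or more), but for CA3 minus DG the change passed without the libraries nearer another subfield (0.54, SE 0.22, adjusted p = 0.041) and without the deeply sequenced rats (0.58, SE 0.25, adjusted p = 0.047).

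The genes most like Acvr1c were the chondroitin sulfotransferase Chst11 (r = 0.87, and 0.59 on Ion Proton), the GABA-A receptor subunit Gabra2 (0.85 and 0.50) and the L-type calcium channel subunit Cacna1c (0.84 and 0.64). In CA3 their AI minus AU differences were 0.23 (SE 0.14) for Chst11, 0.31 (SE 0.13) for Gabra2 and 0.40 (SE 0.18) for Cacna1c. Over the 34 CA3 libraries Acvr1c had r = 0.64 with the summed CA3 list, at 1121 to 5328 (median 3419) in AU and 1995 to 5088 (median 3744) in AI rats, and r = -0.62 with 6 striatal genes, at 937 to 2627 and 890 to 2523. In 1 of the 17 lists, the 6 oligodendrocyte genes, all genes tested in CA3 had an AI minus AU difference of the same sign, which was negative (median -0.14, 0 called). Their part was not tested, and without the libraries nearer another subfield the AI minus AU difference of Acvr1c was 0.47 (SE 0.20).

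In the lists of the activin and TGF-beta pathway 0 genes were called for age or class in any subfield, where at most 0.31% and 0% of all genes were, and the counts between subfields are to be read beside 35.4% (CA1 to CA3), 55.6% (CA1 to DG) and 55.6% (CA3 to DG) of all genes. Of 9 ligands tested, 5 were called between CA1 and CA3, 6 between CA1 and DG and 4 between CA3 and DG. Inhbb, the activin B subunit, was higher in CA1 than in DG by 1.46 (SE 0.12, adjusted p = 2.6e-19), and CA1 was lower than CA3 for Tgfb3 (-0.78, SE 0.10) and for myostatin, Mstn (-0.57, SE 0.14). In the same order, 2, 8 and 8 of 12 receptors were called, Acvr1c included, and Tgfbr2 (0.54, SE 0.10) and Acvrl1 (0.46, SE 0.12) were higher in CA1 than in DG, opposite to Acvr1c. Of 6 inhibitors and co-receptors, 4, 6 and 5 were called, with the activin-binding follistatin, Fst, lower in CA3 than in DG (-1.68, SE 0.23) and the inhibitory Smad6 (0.59, SE 0.13) and Smad7 (0.38, SE 0.06) higher in CA1 than in DG. Of 3 transducers, 1, 1 and 3 were called, and Smad3 was lower in CA3 than in DG by a difference of -1.84 (SE 0.15, adjusted p = 1.0e-18), beside 0.14 (SE 0.04) for Smad2 and -0.08 (SE 0.04) for Smad4. In CA3 the median AI minus AU difference of the 12 receptors was 0.06, beside -0.00 over all genes.

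Age was compared as the mean of both aged classes against young rats, which does not use the class difference. The 4 members passed in no subfield, where limma called 0.31% of genes in CA1, 0% in CA3 (8 genes by edgeR and 18 by DESeq2) and 0.292% in DG. At an unadjusted p under 0.05 there were 6.11%, 3.28% and 5.16% of genes, and 0 members. For Tnnt1 the aged minus young difference was -0.63 (SE 0.38, adjusted p = 0.91) in CA1, -0.09 (SE 0.50) in CA3 and -0.18 (SE 0.66) in DG. For Olr59 it was -0.25 (SE 0.45), 0.36 (SE 0.58) and 0.15 (SE 0.46). For Ptprv it was 0.36 (SE 0.19, adjusted p = 0.85), 0.00 (SE 0.26) and 0.15 (SE 0.18). For Acvr1c it was 0.17 (SE 0.21), 0.14 (SE 0.18) and 0.18 (SE 0.13), and 20 of 24 aged rats lay above the young median in DG. The age difference itself was compared between subfields in 12 tests, of which limma called 0 (smallest adjusted p = 1.0), where 0% of 14179 genes were called.

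The 3 tables correlated closely for Tnnt1 and less so for the others. Over the libraries of all rats and subfields, as a description, r with the Illumina table was 0.94 on Ion Proton and 0.98 in the WT table for Tnnt1, 0.70 and 0.76 for Olr59, 0.59 and 0.91 for Ptprv, and 0.75 and 0.81 for Acvr1c. Agreement of Ptprv with Ion Proton was lowest in CA1, with r = 0.38 over 34 libraries against 0.74 in DG. In the WT table Olr59 rested on 0 to 123 reads per CA1 library, median 5, and its mean was under the filter in CA3 and DG.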

How the data were processed

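The Illumina reads were trimmed with cutadapt 1.8.3, aligned to rn5 with STAR 2.5 and counted per gene with featureCounts 1.4.4, per the study's methods or the submitters' processing notes. The notes also list bcl2fastq 2.17 and DESeq2 1.16.1, while the methods name another DESeq2 version. The Ion Proton reads were aligned to rn5 with TopHat2 and Bowtie2. The deposited values of all 3 tables are gene counts that the authors divided by size factors, a signal from which whole reads were recovered (100% of values within 0.01 of a read), and depths are sums of those reads. How the WT libraries were made, and whether strand was used in counting, is not given in the sources used here. Counting error limits the precision of low genes such as Olr59.

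Groups came from the sample titles, in which OG and OB mark AU and AI rats. The design was limma 3.58.1 (R 4.3.3) on log2(normalised reads + 1), with genes of mean at least 10, per subfield for age and class and over all libraries for subfields, with Benjamini-Hochberg adjustment over all genes tested and a threshold of 0.05. Changes between rat-number series and the lists of ependymal and cortical genes were added after seeing the data. edgeR 4.0.16 and DESeq2 1.42.0 on the recovered reads, another pseudocount (0.1), no filter, the other tables, each series, series as covariate and leaving out single rats were alternatives. The fits were tested on simulated data. The subfield in which each gene was picked was that with the lowest unadjusted class p, and there no p is given. The genes named beside the members were the 3 with the highest correlation to each, the 3 of each pathway list with the largest called subfield change, and list genes called for age or class. Olr1, the oxidized low density lipoprotein receptor, was taken out of the olfactory receptors, a list of all symbols made of Olr and digits, after its values were seen. The single ependymal and cortical genes and Tnni3 were named after their values were seen. The numbers pair samples because the 3 libraries of a number come from the same rat. The main subfield fits and series changes took the libraries as independent. With the rat number as a replicate block, an alternative run, the consensus correlation in the subfield fit was 0.149. The members and lists were chosen with earlier results of these data known. Gene IDs and symbols are paired in the deposited tables, promoters were matched by symbol (4 of 4) to RefSeq GRCr8, and no coordinate of the files was used. Proteins were not used here.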

Additional observations from a re-analysis of the deposited data

Results flagged for a closer look

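Of 12 groups of 10 young rats, 3 held a rat far from the other 9 by Dixon's gap test on normalised reads. The test flags about 1 group in 20 by chance only where values are normally distributed. The reads were not put on a log scale for it, so no chance rate is read here. Young rat R9881 held 630 normalised reads of Tnnt1 in DG, where the young median was 25.7, and its DG library was nearest CA3 on Illumina. Young rat R9876 held 264 of Olr59 in CA1 and 44.7 of Olr59 in CA3. The AU and AI groups of 12 were not put to that test, which was kept to groups of 4 to 10.

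The subfield difference changed between rats numbered below 9000 and from 9000 up in 6 of 12 tests, which were added after seeing the data. The change (below 9000 minus from 9000 up) was -3.58 for Tnnt1 in CA1 minus CA3, 1.79 for Tnnt1 in CA1 minus DG, 5.37 for Tnnt1 in CA3 minus DG, -1.06 for Ptprv in CA1 minus CA3, 0.76 for Ptprv in CA3 minus DG and -1.76 for Olr59 in CA3 minus DG. Between 0.839% and 48.4% of all genes were called in the same 3 tests. Testing site and rat-number series cannot be told apart here, because no label names a rat's site.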

How the results depend on the processing

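The 4 class differences in the subfields where the genes were picked kept their sign under every alternative run, and leaving out each rat in turn gave -1.54 to -1.09 for Tnnt1 in CA1, 0.87 to 1.30 for Olr59 in CA1, 0.75 to 0.89 for Ptprv in DG and 0.49 to 0.65 for Acvr1c in CA3. The genes were picked for these differences in the same rats, so the kept signs are no independent support. The rat number as a replicate block changed no call in the Illumina table, with Tnnt1 CA1 minus DG at 0.92 as without it. Of the other values, those below changed sign or side of the threshold, and the cause was not tested. No age or class value was past the threshold in any of them. Low read numbers limit Olr59.

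For the subfield differences, rats numbered from 9000 up gave 0.31, -0.034 and -0.35 for Tnnt1 (CA1 minus CA3, CA1 minus DG, CA3 minus DG), -0.21 (CA1 minus CA3) and -0.52 (CA3 minus DG) for Ptprv, 0.65 for Olr59 (CA3 minus DG) and -0.52 for Acvr1c (CA1 minus CA3). Rats below 9000 gave 0.97, -0.14 and -1.11 for Olr59 and 0.24 for Ptprv (CA3 minus DG). Tnnt1 CA1 minus DG fell short with edgeR (0.24), with DESeq2 (0.25), in the WT table (0.69) and without deeply sequenced rats (0.86). Olr59 CA1 minus CA3 passed with DESeq2 (1.15) and without libraries nearer another subfield (0.91), and Olr59 CA3 minus DG was 0.24 with edgeR. On Ion Proton, Ptprv CA1 minus CA3 was -0.53 (also with the replicate block, and -0.50 without libraries unlike their Illumina library) and Acvr1c CA3 minus DG was -0.22 (also with the block, and -0.24 without those libraries).

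For the series changes, those without deeply sequenced rats were 1.72 for Tnnt1 CA1 minus DG and 0.64 for Ptprv CA3 minus DG, no longer past the threshold, and 0.58 for Acvr1c CA3 minus DG, newly past it. Ion Proton gave -1.53 for Olr59 and 0.37 for Ptprv in CA3 minus DG, the WT values gave 0.026 for Acvr1c CA1 minus CA3, and leaving out libraries nearer another subfield gave 0.54 for Acvr1c CA3 minus DG, also newly past the threshold.

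For AI minus AU, the sign turned on Ion Proton for Acvr1c in CA1 (-0.20), Ptprv in CA1 (0.11), Ptprv in CA3 (-0.21) and Olr59 in CA3 (0.28). It turned with DESeq2 for Olr59 in CA3 (0.17), Olr59 in DG (-0.56) and Tnnt1 in CA3 (0.069), and with edgeR for Olr59 in DG (-0.44) and Tnnt1 in CA3 (0.10). Rats below 9000 gave -0.052 for Ptprv and 0.18 for Tnnt1 in CA3, and rats from 9000 up -0.52 for Olr59 in DG, which was -0.20 without deeply sequenced rats. Without libraries nearer another subfield, Tnnt1 was 0.0024 in CA3 and -0.0057 in DG. Leaving out each rat gave -0.63 to 0.043 for Olr59 and -0.38 to 0.0062 for Tnnt1 in CA3, the upper ends without rats R9869 and R9781.

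For aged minus young, Olr59 in CA1 was 0.37 with DESeq2, 0.33 in the WT table and 0.0053 from 9000 up, and in DG -0.29 below 9000 and -0.011 without libraries nearer another subfield. Ptprv in CA3 was -0.42 on Ion Proton, -0.072 from 9000 up and -0.037 with series as covariate, and in DG -0.070 from 9000 up. Acvr1c in CA1 was -0.016 below 9000. Tnnt1 in CA3 was 0.25 without deeply sequenced rats, and in DG 0.032 on Ion Proton (0.051 without libraries unlike their Illumina library) and 0.041 from 9000 up. Leaving out each rat gave -0.44 to 0.17 for Olr59 in CA1, -0.11 to 0.27 for Olr59 in DG, -0.095 to 0.080 for Ptprv in CA3, -0.39 to 0.13 for Tnnt1 in CA3 and -0.44 to 0.26 for Tnnt1 in DG.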
